A study of Mus musculus with 4 samples.

Results

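Mature oligodendrocytes, the cells that wrap axons in myelin, were described in single-cell RNA sequencing of the mouse hippocampus. They were chosen by their own RNA counts, from barcodes that each mark the RNA of 1 droplet and unique molecular identifiers (UMIs) that each mark 1 captured molecule. A barcode was a member when it had at least 200 genes, at least 5 UMIs of Mog, Mal, Ermn, Opalin and Aspa together, and at most 2 UMIs of P2ry12, Cx3cr1, Pdgfra, Gpr17, Gja1 and Cldn5 together. This rule took 935 of the 6281 barcodes with at least 200 genes (14.9%), out of 6464 barcodes deposited. The libraries came from male mice on a C57BL/6J background at 3 months of age, 2 with the Dp(10)2Yey duplication and 2 WT littermates, with 1 library per mouse. Dp(10)2Yey mice carry an additional copy of a segment of chromosome 10 that is orthologous to part of human chromosome 21, in every cell, so the line models only a part of the trisomy. The mice were prepared on 2 days, 1 of each genotype on each day, and the labels do not say which libraries share a day.

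Oligodendrocytes arise from dividing precursor cells that carry the growth factor receptor Pdgfra, pass through a short differentiating stage marked by the receptor Gpr17, and then build myelin from a small number of very abundant proteins and from cholesterol and galactolipids. Mature cells also store iron, couple to neighbouring cells through connexins and hold the axonal junctions beside the nodes of Ranvier. They are not uniform in the brain, and one described set of mature cells carries high Ptgds, the brain's prostaglandin D2 synthase, while another carries Klk6, a secreted serine protease.

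The WT libraries held 113 and 307 members and the Dp(10)2Yey libraries 217 and 298, where, here and throughout, replicate 1 of a genotype is given before replicate 2 and WT before Dp(10)2Yey. These were 11.1% (95% exact binomial interval 9.20 to 13.1) and 18.2% (16.4 to 20.1) of the barcodes in the WT libraries, and 16.01% (14.1 to 18.1) and 13.4% (12.04 to 14.9) in the Dp(10)2Yey libraries. The WT libraries were the lowest and the highest of the 4, with both Dp(10)2Yey libraries between them. The mean share was 14.7% for Dp(10)2Yey (SD 1.82, n = 2) and 14.6% for WT (SD 5.06, n = 2), a difference of 0.0924 points (two-sided exact permutation test, p = 1, where 0.33 is the smallest p that 2 libraries against 2 can give). With a library left out, the difference was -3.48 or 3.67 points when it was WT replicate 1 or 2 and -1.20 or 1.38 when it was Dp(10)2Yey replicate 1 or 2, so its sign turned on single libraries.

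Median depth per member was similar in the 4 libraries, and WT replicate 1 had the fewest UMIs in all. The members of the WT libraries had 535762 and 1644380 UMIs in all, with medians of 4600 and 5033 per barcode, and those of the Dp(10)2Yey libraries had 1208497 and 1581646, with medians of 5049 and 4959.5. The median number of genes per member was 1891, 1971, 2034 and 1965 in the same order. The median share of mitochondrial UMIs was 6.77% and 6.91% in WT and 6.74% and 4.52% in Dp(10)2Yey, where replicate 2 stood apart from the other libraries. Mean shares were 5.63% for Dp(10)2Yey (SD 1.57, n = 2) and 6.84% for WT (SD 0.0993, n = 2) (two-sided exact permutation test, p = 0.33). Scrublet called 4 members doublets, which were kept, and 0 of the 8 barcodes shared by a pair of libraries were members in both.

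The genes that chose the members had medians of 52 and 61 UMIs per member in WT and 59 and 60 in Dp(10)2Yey, far from the limit of 5. At the limit, 6 barcodes had 5 of these UMIs and were members, and 7 had 4 and were not. Of the members, 875 had 0 UMIs of the excluding genes. At that limit 10 members had 2 UMIs, 3 barcodes had 3 and were left out, and 69 barcodes with enough marker UMIs were left out in all.

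The name was checked outside the rule, first with Ppp1r14a, a phosphatase inhibitor that marks mature oligodendrocytes. It had a UMI in 91.2% and 96.1% of members in WT and in 94.9% and 96.0% in Dp(10)2Yey. Among microglia barcodes, with at least 5 UMIs of P2ry12 and Cx3cr1 together and at most 2 of the marker genes, it was found in 1.02%, 1.29%, 0.255% and 1.72% in the same order, at median depths of 3739, 4189.5, 4329.5 and 4124 UMIs. With every barcode thinned to 1000 UMIs, the shares were 80.0%, 81.6%, 81.04% and 84.4% in members and 0.351%, 0.378%, 0 and 0.252% in microglia. The share was near 0 in microglia and high in the members of every library.

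Levels by cell set were taken as the UMIs of a gene scaled to a common total for each summed set (CPM), and since the libraries read the 3′ ends of transcripts they count molecules and are not scaled by length. The members were set beside 220 precursor barcodes (at least 3 UMIs of Pdgfra, Cspg4 and C1ql1 together), 186 barcodes with Gpr17, and all 5346 other barcodes. Precursor markers summed to 3332 CPM in the Gpr17 barcodes and to 4157 in precursor barcodes, as means, with Pdgfra the most abundant in both. The Gpr17 barcodes are thus not a stage free of precursor RNA. They also held RNA of the 5 marker genes of the rule, mostly in the replicate 2 libraries. These genes summed to 28.6 and 47.6 CPM in Gpr17 barcodes of the replicate 1 libraries, WT first, and to 1682 and 2049 in those of replicate 2. The contrasts with members follow from the choice of members and were not tested. Of 19 listed genes of mature cells that the rule did not use, all 19 were higher in members than in all other barcodes, and 16 were higher than in precursors and than in Gpr17 barcodes, while the transcription factors Sox10, Olig1 and Olig2 were lower than in either. One of the 19, Ppp1r14a, was at 1878 CPM in members, 82.6 in Gpr17 barcodes and 1.66 in precursors. For the 19 myelin proteins matched in the table the summed level was 75925 CPM in members, 20923 in Gpr17 barcodes, 4474 in precursors and 4138 in all other barcodes, as means over the 4 libraries. The list holds 4 genes of the rule, and the other 15 summed to 63573, 19984, 4470 and 3987 CPM in the same order. Of these 15 genes, 14 lay higher in members than in precursors and 12 higher than in Gpr17 barcodes. The sum of all 19 in Gpr17 barcodes was 11365 and 13012 CPM in the replicate 1 libraries, WT first. It was 23618 and 35696 CPM in the replicate 2 libraries, so the Gpr17 mean stands for neither pair. The tetraspanin Cd9 was at 1123 CPM in members, 3011 in Gpr17 barcodes and 1715 in precursors, and the deacetylase Sirt2 and Bcas1 were at 608 and 281 in members and 1832 and 612 in Gpr17 barcodes.

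Other functions of the lineage followed separate patterns. Enzymes of myelin lipids summed to 7950 CPM in members, 2708 in Gpr17 barcodes and 1499 in precursors, with the desaturase Scd2 the most abundant. Without Aspa, which is part of the rule, 13 of 15 of these genes lay above the precursors. Genes of nodes, axonal junctions and connexins summed to 4061, 2329 and 1236 CPM, with 11 of 12 genes above the precursors. Enzymes of cholesterol synthesis summed to 1251, 1143 and 787 CPM, with 10 of 19 genes above the precursors. The sum of cholesterol genes thus differed far less between these sets than that of myelin proteins did. Iron handling genes summed to 28578 CPM in members, most of it the ferritin heavy chain Fth1, beside 2215 in Gpr17 barcodes, 2022 in precursors and 7072 in all other barcodes. Of its 9 genes, 5 were higher in members than in precursors, 4 than in Gpr17 barcodes and 4 than in all other barcodes.

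The 12 transcription factors of the lineage summed to much the same level in members, Gpr17 barcodes and precursors. The sums were 3935, 4761 and 4396 CPM in that order, but their make-up differed. Olig2, which specifies the lineage, was at 175 CPM in members and 763 in precursors, and Olig1 at 813 and 2302. Myrf, which drives myelin genes, was at 383 and 10.9 CPM, and Nkx6-2 at 593 and 3.12. Sox10, which acts throughout the lineage, was at 478 and 644 CPM. Genes of the differentiating stage summed to 240 CPM in members, 4417 in Gpr17 barcodes and 2380 in precursors. Gpr17 itself was limited by the rule and chose the Gpr17 barcodes, and the other 10 genes summed to 237, 3494 and 2274 CPM.

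**Figure D1:**
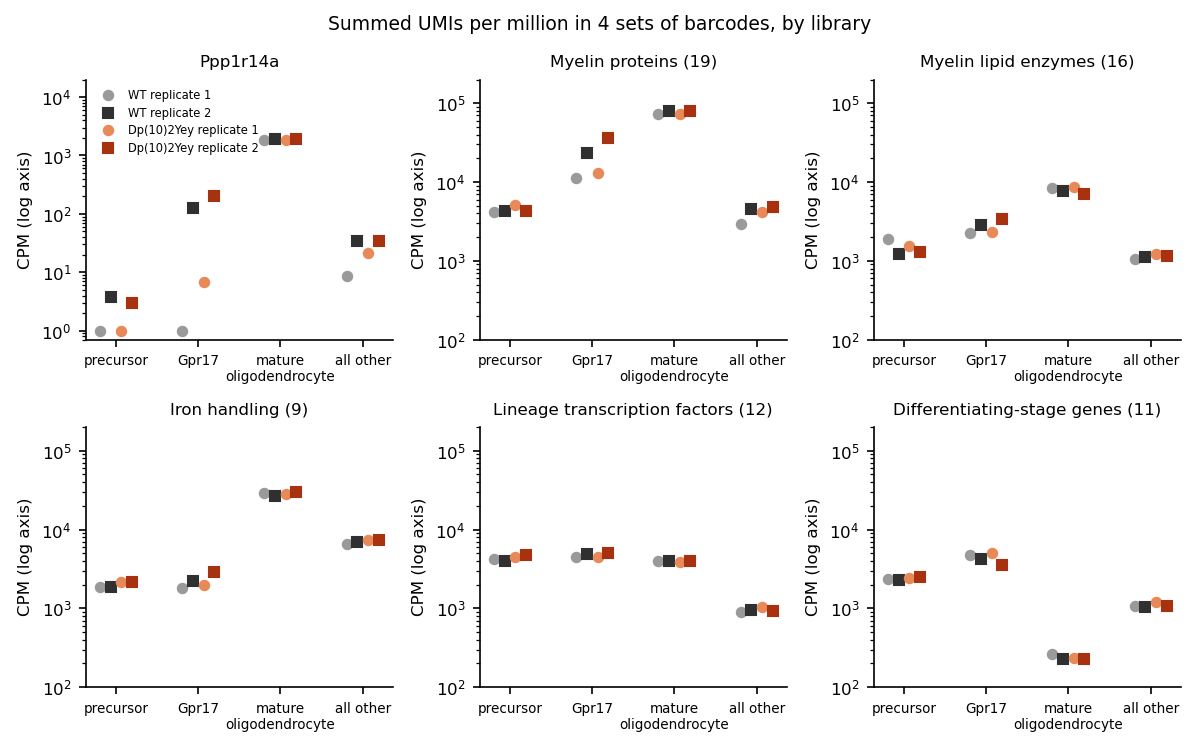
Level of Ppp1r14a and summed levels of 5 gene lists (CPM, log axis) in precursor, Gpr17, mature oligodendrocyte and all other barcodes, 1 point per library, with levels of 0 drawn at 1. Myelin proteins summed to 75925 CPM in members and 4474 in precursors, as means, while the transcription factors summed to 3935 and 4396.

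Among abundant transcripts of the members, Fth1 had a mean of 23681 CPM over the 4 libraries, Ptgds one of 15073, and Mal, which was part of the rule, one of 7137. Carbonic anhydrase Car2 was at 4517 CPM, Mbp at 4441, the cyclic nucleotide phosphodiesterase Cnp at 4187 and transferrin, Trf, at 3745.

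Markers of other cells were low in the members. Precursor markers summed to 2.32 CPM, endothelial markers to 3.05, neuron markers to 46.5, microglia markers to 95.2 and astrocyte markers to 308, as means over the 4 libraries. In all other barcodes the same lists summed to 454, 1136, 804, 20148 and 4270 CPM. P2ry12, Cx3cr1, Pdgfra, Gja1 and Cldn5 are in these lists and were limited by the rule.

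Among themselves, the members varied most in Ptgds and Malat1. Over 4874 genes with at least 0.1 UMI per member in every library, the variance left after depth (Pearson residuals given each barcode's total, with a median of 1.04 over these genes) was above 5 in 25 genes, as the median of the 4 libraries. For Ptgds it was 56.5 and 67.7 in WT and 69.4 and 90.5 in Dp(10)2Yey. For Malat1, a nuclear RNA, it was 63.998 and 66.9 in WT and 69.5 and 58.95 in Dp(10)2Yey, above Ptgds in replicate 1 of each genotype. Fos followed, at 23.1 and 25.7 in WT and 35.7 and 30.8 in Dp(10)2Yey. The 20 most varied genes also held the immediate early genes Egr1 and Junb, 6 mitochondrial transcripts, the lipid carriers Apoe and Apod, the metallothionein Mt1, and S100b, a calcium-binding protein encoded in the duplicated segment.

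To see what moved with Ptgds, the members of each library were split into 4 groups of near equal size by rising Ptgds. Its mean level over the libraries went from 1536 CPM in the lowest group to 35432 in the highest. Of the other genes listed for the Ptgds-rich state, Apoe went from 1594 to 4030 CPM, the alarmin Il33 from 435 to 786, the junctophilin Jph4 from 225 to 358 and the protocadherin Pcdh17 from 77.2 to 132, each higher in the top group in all 4 libraries. Apod went the other way, from 5279 to 2348 CPM, as did Trf, from 5160 to 2957, both lower in the top group in all 4 libraries. Grm3 went from 130 to 119 CPM and Car2 from 4566 to 4550, with Car2 higher in 2 libraries and lower in 2, so the list did not move as 1 group. Levels are shares of 1 total, which Ptgds itself makes up in part, and median depth in the lowest group was 5787 and 5881 UMIs in the replicate 2 libraries, beside 4289 and 4779 in the highest.

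The genes listed for the Klk6 state lay at the low end of Ptgds. Klk6 itself was at 126 CPM in the lowest group and at 0 in the highest, where all 4 libraries had no UMI. Without Dp(10)2Yey replicate 1, at 303 CPM, the mean in the lowest group was 66.6. The homeodomain-only protein Hopx went from 266 to 21.6 CPM, the glutathione transferase Mgst3 from 106 to 18.2, the annexin Anxa5 from 146 to 37.1 and Cd59a, a complement inhibitor, from 47.9 to 5.65, each lower in the top group in all 4 libraries. Anxa5 was at 94.3 CPM in the lowest group without Dp(10)2Yey replicate 1. S100a6 went from 202 to 78.0 CPM and was lower in 3 libraries and higher in 1.

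Further genes were chosen for this view after their values were seen. S100b went from 1168 CPM in the lowest group to 74.9 in the highest, Enpp6, a choline phosphodiesterase of newly formed oligodendrocytes, from 332 to 10.985, the selenium carrier Selenop from 1037 to 95.1, and the actin-binding protein Anln from 755 to 137. Cd9 went from 520 to 1385 CPM and Opalin from 905 to 1976. Mog went from 1393 to 1434, Ppp1r14a from 2023 to 1698 and Mbp from 4582 to 3999, so these transcripts differed little across a wide span of Ptgds.

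**Figure D2:**
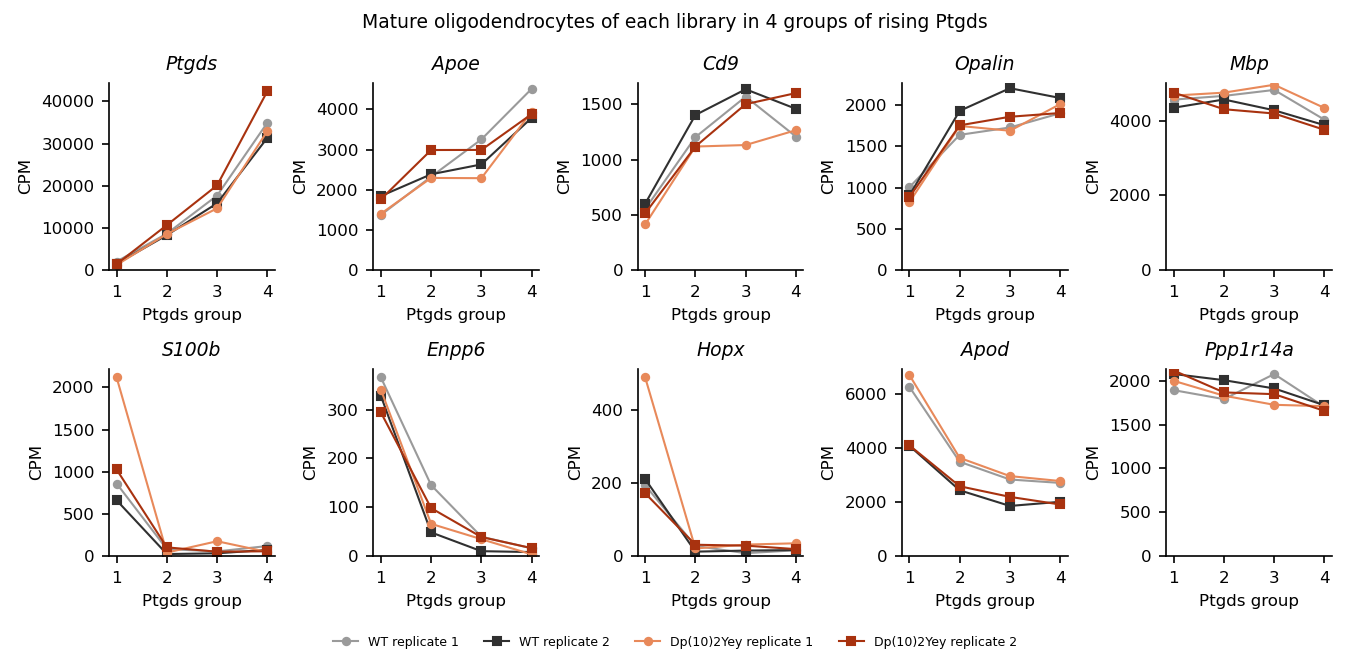
Levels of 10 genes (CPM) in the members of each library, split into 4 groups of near equal size by rising Ptgds, with 1 line per library. S100b, Enpp6, Hopx and Apod were highest in the lowest group and Apoe, Cd9 and Opalin lowest there in all 4 libraries, while Ppp1r14a stayed between 1657 and 2118 CPM in the lowest and highest groups.

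The same pairs were described across single members within each library, as Pearson's r of normalized levels over 113 to 307 members that share a library and differ in depth. The r of Ptgds was -0.70 to -0.52 with Enpp6, -0.68 to -0.52 with S100b, -0.56 to -0.41 with Hopx and -0.48 to -0.32 with Klk6 over the 4 libraries. It was 0.39 to 0.51 with Apoe and 0.47 to 0.60 with Cd9. Other genes that differed between the lowest and highest groups in all 4 libraries had weaker values. These were 0.02 to 0.23 with Jph4, 0.03 to 0.18 with Pcdh17, -0.28 to -0.10 with Anxa5 and -0.27 to -0.03 with Cd59a. Some immediate early genes varied together: r of Fos was 0.71 to 0.90 with Egr1, 0.68 to 0.81 with Junb and 0.64 to 0.73 with Fosb, but 0.01 to 0.09 with Ptgds. Others on that list were weakly tied to Fos, with r of 0.14 to 0.28 for Nr4a1, 0.03 to 0.30 for Ier3, 0.05 to 0.30 for Klf6 and for Nfkbia and 0.05 to 0.21 for Atf3.

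S100b was also set beside Klk6 across the members. A Klk6 UMI was found in 1.77% and 3.26% of members of the WT libraries and 7.37% and 4.03% of the Dp(10)2Yey libraries, at medians of 4600, 5033, 5049 and 4959.5 UMIs. In members thinned to 1000 UMIs it was found in 0.952%, 1.003%, 3.32% and 1.73%, and in 0 of the microglia barcodes with or without thinning. The genotypes did not overlap in this share, which was higher in Dp(10)2Yey. The thinned shares rest on 1 and 3 members in WT and on 7 and 5 in Dp(10)2Yey. The difference was not tested, and an exact permutation test of 2 libraries against 2 can give no p below 0.33. In the 40 members with Klk6, S100b was at 3071 and 1214 CPM in WT (2 and 10 members) and at 3654 and 2166 in Dp(10)2Yey (16 and 12 members). Without the barcode with the most S100b UMIs in each library it was at 2047 (1 member) and 1214 CPM in WT and 1522 and 1856 in Dp(10)2Yey, and the order of the libraries was another. In members without a Klk6 UMI it was at 206 and 178 CPM in WT and 196 and 242 in Dp(10)2Yey. The members with Klk6 were the higher in S100b in every library, and among those without it the genotypes overlapped. Members with Klk6 were chosen on that value, and their median depth was 7653, 6487, 6453.5 and 6319 UMIs, above that of the members at large.

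A single barcode of Dp(10)2Yey replicate 1, with 33738 UMIs or 6.68 times the library's median, held 370 of its 754 S100b UMIs and 72 of its 98 Klk6 UMIs. It also held 60 of the 71 UMIs of Tubb2b, a beta tubulin, and had 0 UMIs of the excluding genes. Without it, S100b in that library went from 624 to 327 CPM and Klk6 from 81.1 to 22.1, beside 338 and 22.1 CPM in Dp(10)2Yey replicate 2.

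**Figure D3:**
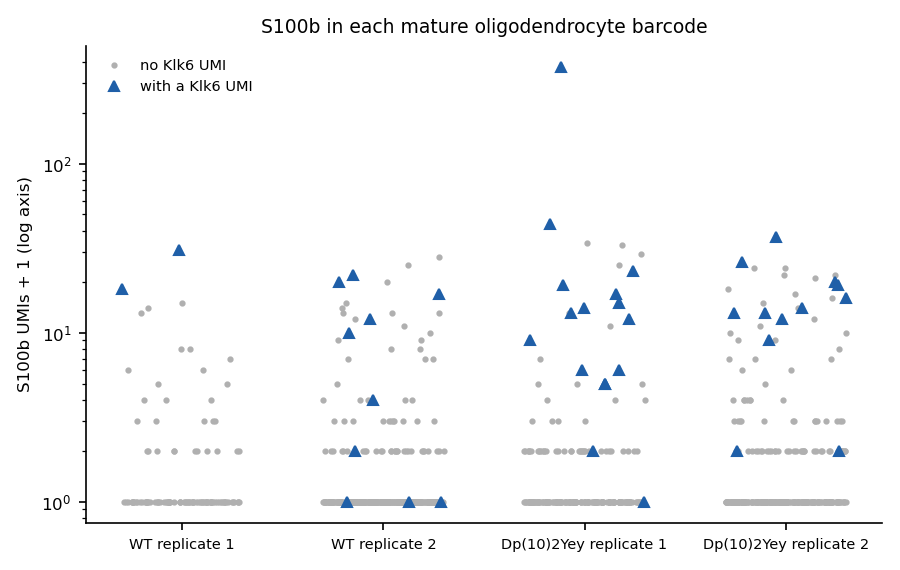
UMIs of S100b plus 1 (log axis) in each member by library, with members that have a Klk6 UMI as triangles and the sideways spread of points only for display. The highest point is the barcode of Dp(10)2Yey replicate 1 with 370 UMIs of S100b.

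The question of the study for these cells was which genes differ between Dp(10)2Yey and WT. For this, UMIs were summed over the members of each library, and in what follows CPM is scaled by TMM over the 4 sums. In edgeR's quasi-likelihood test with Benjamini-Hochberg adjustment, 0 of 8465 genes had an adjusted p under 0.01 (0%), and the smallest adjusted p was 0.406. By the same tool 241 genes had an unadjusted p under 0.05, of which 120 (1.42%) were higher and 121 (1.43%) lower in Dp(10)2Yey, and DESeq2 called 0, with 33 at an unadjusted p under 0.05. The 0 depended on the filter on low counts, without which 28 genes passed, and on single libraries, since 16 or 3 genes passed with WT replicate 1 or 2 left out, and 11 or 0 with Dp(10)2Yey replicate 1 or 2 left out. Each such fit compares 2 libraries with 1 and assumes that the lone library varies like the others. The 0 also depended on pairing, since 27 genes, 21 of them higher, passed with a block for replicate number. The labels do not tie that number to a day.

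Genes of the duplicated segment lay on the higher side. The segment, taken from Prmt2 through Pdxk, covers chromosome 10 from 76207222 to 78464975 in GRCm38 and holds 62 protein-coding genes, of which 30 had a UMI in members and 20 passed the filter on low counts. All 20 had a fitted log2 fold change above 0, Dp(10)2Yey over WT, beside 4161 of the 8465 genes tested. In 15 of the 20 the Dp(10)2Yey libraries were the 2 highest, as in 14.5% of all genes tested. Of these genes, 11 had an unadjusted p under 0.05. Their median log2 fold change was 0.59, beside -0.0048 over all genes tested and beside 0.585, the value for 3 copies against 2.

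The transport factor Trappc10 was at 127 and 132 CPM in WT and at 215 and 213 in Dp(10)2Yey. The ribosome biogenesis protein Rrp1 was at 80.4 and 107 CPM in WT and 164 and 182 in Dp(10)2Yey, and the acyltransferase Agpat3 at 110 and 117 in WT and 178 and 204 in Dp(10)2Yey. Libraries of each genotype lay close together in Trappc10, while the WT libraries of Rrp1 and the Dp(10)2Yey libraries of Agpat3 lay further apart. The genotypes did not overlap in these genes, which are also among the 12 named below that were chosen for that separation. The log2 fold changes of Trappc10, Rrp1 and Agpat3 were 0.72 (SE 0.15), 0.83 (SE 0.17) and 0.74 (SE 0.16), each with an adjusted p of 0.406 (edgeR's quasi-likelihood test with Benjamini-Hochberg adjustment), higher in 2 of 2 Dp(10)2Yey libraries.

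In 5 of the 20 genes, Ybey, Fam207a, Sumo3, Pfkl and Pwp2, the genotypes overlapped. In the 8 with a mean of at least 50 CPM they did not, and the log2 fold changes ran from 0.51 to 0.94 with a median of 0.73. The next gene by level, at 49.1 CPM, was the ubiquitin-like modifier Sumo3, with the lowest fold change of the 20, 0.11, so these values depend on where the limit lies. Of the 4 pairs of a Dp(10)2Yey and a WT library, the median over the 20 genes was lowest, at 0.54, for Dp(10)2Yey replicate 2 over WT replicate 1 and highest, at 0.63, for Dp(10)2Yey replicate 1 over WT replicate 1. It was -0.03 between the Dp(10)2Yey libraries and 0.01 between the WT libraries, replicate 2 over replicate 1.

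S100b had the highest fold change in the segment. It was at 288 and 224 CPM in WT and 623 and 345 in Dp(10)2Yey, and the highest library was the one with the barcode of 370 UMIs. The log2 fold change was 0.94 (SE 0.24), and 0.46 without Dp(10)2Yey replicate 1. It passed an adjusted p of 0.01 in edgeR's quasi-likelihood test without WT replicate 1, at 1.11, and without the filter on low counts, at 0.96. S100b passed likewise with the block for replicate number, at 0.84. In settings chosen after seeing the data its log2 fold change was 0.42 without the 5 barcodes that held most member UMIs of some gene. It was 0.22 without the members that have a Klk6 UMI.

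**Figure D4:**
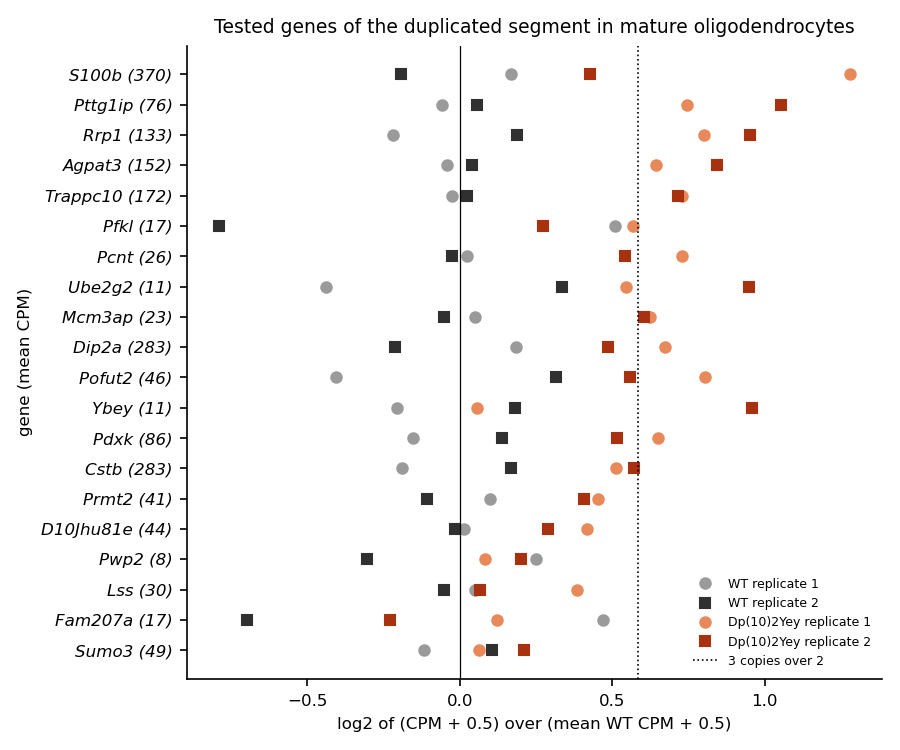
Log2 of CPM over the mean WT level, with 0.5 CPM added to each, for the 20 tested genes of the duplicated segment in members, 1 point per library, with the mean CPM beside each name. The dotted line marks 3 copies over 2, and the Dp(10)2Yey libraries were the 2 highest in 15 of the 20 genes.

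The 12 genes with the smallest p among those with the Dp(10)2Yey libraries as the 2 highest held 6 of the segment, which were Trappc10, Rrp1, Agpat3, Pttg1ip, S100b and Dip2a. First by p was Tyr, the tyrosinase of pigment synthesis, with 0 UMIs in members of both WT libraries and 11 and 16 UMIs, in 10 and 16 barcodes, in Dp(10)2Yey. At 9.68 CPM over the Dp(10)2Yey members, it was at least 7.03-fold higher than WT, with 3 counts over the WT members as the floor. All other barcodes likewise had 0 UMIs of Tyr in both WT libraries and 28 and 47 in the Dp(10)2Yey libraries. Tyr was thus without a UMI in WT in the members and in other cells alike. RNA of the mouse's own gene and of a sequence that came with the duplication cannot be told apart here, so the fold is of UMIs counted as Tyr.

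The other genes on the higher side included the glutamate transporter Slc1a2, at 63.6 and 95.7 CPM in WT and at 218 and 130 in Dp(10)2Yey. The translation inhibitor Pdcd4 was at 28.1 and 34.2 CPM in WT and 56.2 and 67.7 in Dp(10)2Yey. The endoplasmic reticulum chaperone Hspa5 was at 211 and 147 CPM in WT and 243 and 299 in Dp(10)2Yey. The genotypes did not overlap in these genes, but WT replicate 1 and Dp(10)2Yey replicate 1 lay close in Hspa5. The log2 fold changes were 1.03 (SE 0.25), 0.95 (SE 0.23) and 0.65 (SE 0.19), with adjusted p of 0.758, 0.758 and 0.9995 (edgeR's quasi-likelihood test with Benjamini-Hochberg adjustment).

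Markers of astrocytes, which express Slc1a2 strongly, lay on the same side. Of the 7 on the list 6 were tested, 5 of them with a fold change above 0, as in 4161 of the 8465 genes tested, and the median was 0.39. The list summed to 183 and 274 CPM in WT and to 454 and 319 in Dp(10)2Yey on the unscaled level, with Slc1a2 the most abundant and none of the 7 at 0 over the members. Without WT replicate 2 the median was 1.19, and without WT replicate 1 it was 0.14. The part of astrocyte RNA in the level of Slc1a2 was not tested.

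Globin transcripts of red blood cells were also among the 12. Hbb-bs was at 7.48 and 10.6 CPM in WT and 27.3 and 76.7 in Dp(10)2Yey, and Hba-a1 at 3.74 and 6.83 in WT and 19.004 and 33.5 in Dp(10)2Yey. Dp(10)2Yey replicate 2 was the highest in both. A single barcode of Dp(10)2Yey replicate 1 held 17 of its 33 Hbb-bs UMIs and 14 of its 23 Hba-a1 UMIs, and without it the unscaled levels there were 13.3 and 7.45 CPM, beside 10.3 and 6.69 in WT replicate 2. An Hbb-bs UMI was found in 3.54% and 5.54% of members of the WT libraries and 7.83% and 27.2% of the Dp(10)2Yey libraries, beside 4.07%, 4.78%, 8.93% and 25.3% of microglia barcodes in the same order, at medians of 3739, 4189.5, 4329.5 and 4124 UMIs. Thinned to 1000 UMIs, the shares were 0.952%, 0.669%, 1.42% and 6.23% in members and 1.05%, 1.13%, 2.36% and 8.68% in microglia. The share was of the same order in cells of another type in each library, and lower in members than in microglia when thinned. The part of free RNA in the globin levels was not tested. All 4 globin genes on the list had a UMI in members, and they summed to 4720.5 and 4239 CPM in all other barcodes of the WT libraries and to 8063 and 13574 in those of the Dp(10)2Yey libraries.

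On the lower side, the 12 genes with the smallest p held 0 genes of the segment, where both Dp(10)2Yey libraries lay below both WT libraries for 15.3% of all genes tested. They held both light and heavy chains of the MHC class I complex, which presents peptides to T cells. Its light chain B2m was at 65.5 and 52.2 CPM in WT and 27.3 and 19.98 in Dp(10)2Yey. The heavy chain H2-D1 was at 61.7 and 35.4 CPM in WT and 16.5 and 19.98 in Dp(10)2Yey. Both Dp(10)2Yey libraries lay below both WT libraries in these genes, and WT replicate 1 was the highest. For B2m, 1 barcode held 11 of the 35 UMIs in WT replicate 1. Without it the unscaled level there was 45.4 CPM, beside 51.1 in WT replicate 2. For H2-D1, 1 barcode held 13 of the 33 UMIs in WT replicate 1 and another 17 of the 57 in WT replicate 2, and without it the unscaled level of each was 37.7 and 24.5 CPM. The log2 fold changes were -1.28 (SE 0.26) and -1.26 (SE 0.31), with adjusted p of 0.406 and 0.852 (edgeR's quasi-likelihood test with Benjamini-Hochberg adjustment).

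B2m and H2-D1 belong to a list of genes known from reactive oligodendrocytes, of which 9 of 13 were tested. On this list 8 genes had a fold change below 0, 3 an unadjusted p under 0.05, and the median was -0.54, beside 4304 and 241 of the 8465 genes tested and a median of -0.0048 over all of them. The protease inhibitor Serpina3n was at 7.48 and 17.4 CPM in WT and 4.96 and 5.80 in Dp(10)2Yey. Complement C4b was at 13.1 and 47.8 CPM in WT and 18.2 and 22.6 in Dp(10)2Yey, where the genotypes overlapped. The heavy chain H2-K1 had a log2 fold change of -0.11 and Il33 one of -0.02. The median of the list was -0.22 without WT replicate 1 and -0.14 with the sums thinned to the smallest library.

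Microglia markers were also on the lower side, but with another order of the libraries. Of the 9 listed, 5 were tested and 5 had a fold change below 0, as in 4304 of the 8465 genes tested, with a median of -0.78. They summed to 50.4 and 175 CPM in members of the WT libraries and 68.7 and 87.3 in Dp(10)2Yey, with none of the 9 at 0 over the members. WT replicate 1, the highest in H2-D1 and, with all barcodes kept, in B2m, was the lowest in this sum. WT replicate 2 was the highest, and without it the median was 0.75, while it was -1.31 with WT replicate 1 left out and -1.29 with Dp(10)2Yey replicate 2 left out. In the fit without WT replicate 2 the microglia list thus lay on the other side, whereas the reactive list was at -0.40. The part of microglia RNA in the level of B2m and H2-D1 was not tested.

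Other genes on the lower side were Sox2, a transcription factor of neural progenitors and glia, at 138 and 116 CPM in WT and 84.3 and 80.6 in Dp(10)2Yey. The vesicle protein Synpr was at 39.3 and 41.0 CPM in WT and 23.1 and 21.9 in Dp(10)2Yey. In both genes the libraries within a genotype lay close together, with log2 fold changes of -0.59 (SE 0.17) and -0.84 (SE 0.25). Klf2, a transcription factor of quiescent endothelium and T cells, was at 22.4 and 22.4 CPM in WT and 7.44 and 2.58 in Dp(10)2Yey. Of the 36 Klf2 UMIs in WT replicate 2, 30 came from 1 barcode, and of the 12 in WT replicate 1, 9 did. Without the barcode with the most Klf2 UMIs in each library, it was at 5.61 and 3.67 CPM in WT and 4.99 and 1.27 in Dp(10)2Yey on the unscaled level, where the genotypes overlapped. Lars2, Gm42418 and AY036118 were on the lower side too, with log2 fold changes of -0.95, -0.88 and -0.61.

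**Figure D5:**
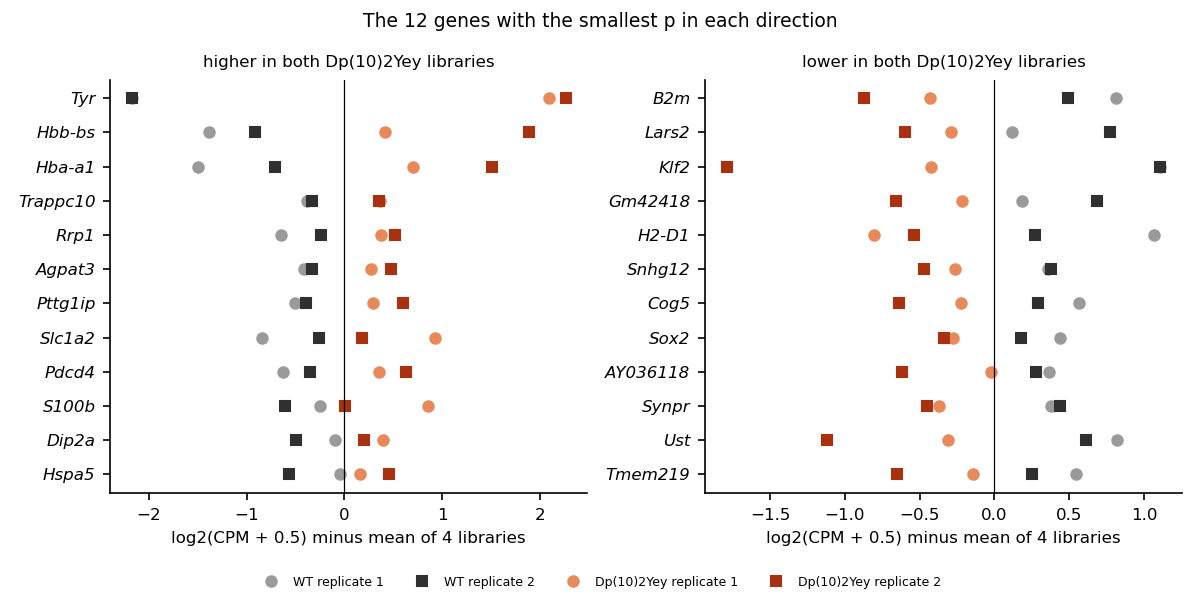
Log2 of CPM plus 0.5, less the mean of the 4 libraries, for the 12 genes with the smallest p in each direction among genes whose genotypes did not overlap, 1 point per library. Genes were chosen for the separation that the plot shows, and 0 of them passed an adjusted p of 0.01.

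The genes that make up the work of the mature cell differed little between genotypes in their medians. Over all 8465 genes tested, 4161 were higher, 241 had an unadjusted p under 0.05 (edgeR's quasi-likelihood test), and the genotypes did not overlap in 14.5% on the higher and 15.3% on the lower side. Of the 19 tested myelin proteins 9 were higher and 10 lower in Dp(10)2Yey, with a median log2 fold change of -0.02 and 0 genes at an unadjusted p under 0.05 (edgeR's quasi-likelihood test). Mbp was at 4534 and 4372 CPM in WT and 4680 and 4356 in Dp(10)2Yey, a log2 fold change of 0.02 (SE 0.14). In Mbp the genotypes overlapped.

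Lipid enzymes had 7 of 16 genes higher and a median of -0.04, and cholesterol synthesis 10 of 18 and 0.03. The node and junction list had 6 of 12 higher and a median of -0.03. Within it Hapln2, a link protein of the nodal matrix, was at 196 and 209 CPM in WT and 229 and 295 in Dp(10)2Yey, and the connexin Gjb1 at 282 and 268 in WT and 306 and 362 in Dp(10)2Yey. Both had all Dp(10)2Yey libraries above all WT libraries, with log2 fold changes of 0.37 (SE 0.16) and 0.29 (SE 0.15). In another 2 of the 12, the adhesion proteins Nfasc and Ninj2, the genotypes did not overlap on the lower side, at -0.22 and -0.19, so neither count stood far from the shares over all genes. Lineage transcription factors had 6 of 12 higher and a median of 0.02, and iron handling 5 of 7 and 0.07, which lay between -0.03 and 0.01 with each of the 4 libraries left out. Within the iron list the genotypes did not overlap in Aco1, an iron-regulated RNA-binding aconitase, and in the iron transporter Slc11a2, both lower in Dp(10)2Yey, with log2 fold changes of -0.84 (unadjusted p = 0.045, edgeR's quasi-likelihood test) and -0.36, where 15.3% of all genes lay so. With single libraries left out, the median ran from -0.03 to 0.03 for myelin proteins, -0.12 to -0.02 for lipid enzymes, -0.02 to 0.15 for cholesterol synthesis, -0.05 to 0.10 for nodes and junctions and -0.01 to 0.09 for the transcription factors, and with thinned sums it was 0.19 for cholesterol synthesis. The 4 tested genes of the differentiating stage had a median of -0.29, with 1 higher. It was -0.44 or -0.17 with Dp(10)2Yey replicate 1 or 2 left out, -0.07 with thinned sums and 0.04 with a looser rule (at least 3 marker UMIs, at most 4 of the excluding genes), so its direction depended on the rule.

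Of the states that divided the members, the genes of the Ptgds state had 6 of 9 higher and a median of 0.06, beside 4161 of the 8465 genes tested. The median was 0.14 or 0.02 with WT replicate 1 or 2 left out and 0.11 or 0.04 with Dp(10)2Yey replicate 1 or 2 left out. Ptgds itself was at 15253 and 13574 CPM in WT and 13987 and 18116 in Dp(10)2Yey. Apod was at 3877 and 2724 CPM in WT and 4048 and 2804 in Dp(10)2Yey, so the libraries lay together by replicate number and not by genotype. Genes of the Klk6 state had 5 of 6 higher, 2 at an unadjusted p under 0.05, beside 241 of the 8465, and a median of 0.53, which was 0.88 with WT replicate 2 left out and 0.03 or 0.92 with Dp(10)2Yey replicate 1 or 2 left out. Without the 5 barcodes that held most member UMIs of some gene the median was 0.01, and without members with a Klk6 UMI it was -0.13. The difference between the lists was not tested.

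Genes of the response to glucocorticoids had 8 of 8 tested genes higher, out of 11 listed, with a median of 0.37 and 2 at an unadjusted p under 0.05, beside 4161 and 241 of the 8465 genes tested. Klf9 was at 116 and 121 CPM in WT and 176 and 146 in Dp(10)2Yey, and the kinase Sgk1 at 112 and 67.7 in WT and 164 and 110 in Dp(10)2Yey, where the genotypes overlapped. Dp(10)2Yey replicate 1 was the highest in both genes, and without it the median was 0.14. Immediate early genes had 12 of 15 higher and a median of 0.14, which was -0.02 or 0.79 with WT replicate 1 or 2 left out and 0.24 with Dp(10)2Yey replicate 2 left out. Heat shock genes had 9 of 11 higher and a median of 0.20, which was 0.51 or -0.004 with WT replicate 1 or 2 left out and 0.37 with Dp(10)2Yey replicate 2 left out. Mitochondrial transcripts had 1 of 13 higher and a median of -0.31, beside the lower mitochondrial share of Dp(10)2Yey replicate 2. It was -0.13 without that library and -0.70 without Dp(10)2Yey replicate 1. Ribosomal protein genes had 43 of 87 higher and a median of 0.00.

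Whether the genotype difference in members differed from that in all other cells of the same mice was tested as an interaction in edgeR's quasi-likelihood fit, with each library as a block. Genes could pass the filter on low counts in the other barcodes alone, so 12304 were tested, beside 8465 in members. Cxcl2, Tmem212, Ccl12, Ccl2, Rsph1, Mrc1 and Acta2, with member UMIs in WT replicate 2 only, could not have passed on members. Of the 12304 genes, 16 (0.13%) had an adjusted p under 0.01, and 536 an unadjusted p under 0.05, while DESeq2 called 0, with 45 at an unadjusted p under 0.05. In 14 of the 16 most member UMIs came from 1 barcode. A barcode of WT replicate 2 with 13597 UMIs held 36 of 36 member UMIs of Tmem212, 28 of 29 of Ccdc153, both known from ciliated cells, and 30 of 32 of Rarres2, the precursor of chemerin. Another of WT replicate 2, with 7801 UMIs, held 68 of 68 of the chemokine Cxcl2 and 35 of 35 of the chemokine Ccl12. These barcodes met the rule, with 39 and 45 marker UMIs and 0 and 2 UMIs of excluding genes, which include no gene of ciliated cells. Without called doublets the difference of effects for Ccl12 went from -8.61 to 0.0559, so the barcode with its UMIs was among the doublets kept. In that setting 12 genes were called. Without the 5 barcodes that held most member UMIs of some gene, a setting chosen after seeing the data, 1 gene was called.

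That gene was Hspa1b, an inducible heat shock protein. On the scale of that fit it was at 73.9 and 9.75 CPM in members of the WT libraries and 39.9 and 50.5 in Dp(10)2Yey, and at 146 and 28.3 in all other WT barcodes and 58.5 and 19.01 in all other Dp(10)2Yey barcodes. In members the genotypes overlapped, and in both sets WT replicate 1 was the highest. The genotype effect in members less that in all other barcodes was 1.60 (SE 0.29, adjusted p = 7.65e-05, edgeR's quasi-likelihood test with Benjamini-Hochberg adjustment), and 0.62, no longer called, without Dp(10)2Yey replicate 2. With WT replicate 1 or 2 left out, 32 or 7 genes were called, and with Dp(10)2Yey replicate 1 or 2 left out, 18 or 4.

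Against the precursor barcodes, the dividing stage of the lineage, 4 of 7946 genes (0.0503%) had an adjusted p under 0.01, and 267 an unadjusted p under 0.05. DESeq2 called 0, with 67 at an unadjusted p under 0.05. The genes were Hbb-bs, Nnat, Ptgds and Zfp36l1, of which 1, Nnat, had most of its member UMIs in 1 barcode. For Zfp36l1, 1 barcode of WT replicate 2 held 22 of the 37 member UMIs of that library. In the precursors Ptgds was at 207 and 35.7 CPM in WT and at 19.1 and 654 in Dp(10)2Yey, whereas the members were at 18775 and 16837 in WT and 17367 and 22507 in Dp(10)2Yey. The genotypes overlapped in both sets, and Dp(10)2Yey replicate 2 was the highest in both. The effect in members less that in precursors was -1.49 (SE 0.32, adjusted p = 0.00713, edgeR's quasi-likelihood test with Benjamini-Hochberg adjustment), and 2.17 without Dp(10)2Yey replicate 2, so its direction turned on that library. Without Dp(10)2Yey replicate 2, 2 genes were called.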

How the data were processed

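The authors deposited raw UMI counts per gene and cell barcode, from Cell Ranger 3.0.2 against a custom mm10 reference, for 4 libraries. Members and lists of genes were chosen with earlier results of these data known. Member UMIs were summed per library and compared with edgeR 4.0.16 in R 4.3.3 (TMM, filterByExpr, quasi-likelihood test, Benjamini-Hochberg adjustment over all genes tested, threshold 0.01), and interactions were fitted on sums of 2 sets of barcodes with library as a block. DESeq2 1.42.0 served as an alternative, and Scrublet in scanpy 1.11.5 called doublets. Barcodes above 20% mitochondrial UMIs were kept. The code was tested on simulated data. Named are the markers of the rule, genes of the lists, the 12 genes with the smallest p in each direction whose genotypes did not overlap, tested genes of the duplicated segment (GENCODE annotation), the 20 most abundant and 20 most varied genes and the 5 with the smallest p in each interaction; others are marked as chosen later. Of 20 listed myelin proteins, 1 symbol was not matched. Precursor, endothelial and choroid plexus markers had 0 tested genes, and 3 tested neuron markers had a median log2 fold change of -0.08. Alternatives were RLE scaling, no filter, stricter and looser rules (10 and 3 marker UMIs, 0 and 4 excluding UMIs), thinned sums and each library left out.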

Additional observations from a re-analysis of the deposited data

Results flagged for a closer look

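In the members the genotype effect differed, by the interaction test at an adjusted p under 0.01, from that in all other barcodes of the same mice for 16 genes. Each value is the log2 effect in members less that in the other barcodes. Chemokines and genes of myeloid cells were Cxcl2 at -9.69, Ccl12 at -8.61, Ccl2 at -8.06, Ctsc at -7.62, Mrc1 at -7.57 and Lyz2 at -3.58. Tmem212 was at -8.87, Rsph1 at -7.75, Acta2 at -7.58, Rarres2 at -5.44, Ccdc153 at -5.21, Gm19935 at -3.48, Zfp36l1 at -2.43 and Nnat at -2.11. For Cxcl2, Tmem212, Ccl12, Ccl2, Rsph1, Mrc1 and Acta2 the members of both Dp(10)2Yey libraries and of WT replicate 1 had no UMI, so these fitted values depend on the prior count and are no bounds. The same holds for Ctsc, with no UMI in members of both Dp(10)2Yey libraries. The positive values were Tubb2b at 2.00 and Hspa1b at 1.60. Of the 16 genes, 14 had most member UMIs in 1 barcode. A gene could pass the filter on low counts in the other barcodes alone.

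Against precursor barcodes the difference of effects passed the same threshold for 4 genes. It was 4.15 for Hbb-bs, -2.29 for Nnat, -1.49 for Ptgds and -2.46 for Zfp36l1. Hbb-bs was at 188 CPM in the precursors of WT replicate 1 and at 19.5 in those of WT replicate 2. It was at 15.3 and 22.7 CPM in those of Dp(10)2Yey replicates 1 and 2. The precursors of WT replicate 1 numbered 27 barcodes, and without that library Hbb-bs was not called as positive.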

How the results depend on the processing

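The count of genes changed was 0 in all settings but 3, which were a test without the filter (28), a block for replicate number (27, of which 21 were higher, S100b at 0.84 among them) and the removal of single libraries (0 to 16). The block pairs libraries by a number that the labels do not tie to a day. Deviations of libraries with the same number had r = 0.125 over 8465 genes. The block left the segment's median at 0.61. That median was 0.54 with thinned sums and 0.53 to 0.68 with single libraries left out. The difference in share became -0.163 points over all barcodes deposited, -0.0078 without barcodes of more than 10 globin UMIs, -0.0335 and -0.364 with the stricter and looser rules, -0.813 with each barcode thinned, 0.710 without barcodes above 20% mitochondrial UMIs, 0.163 without doublets, and -3.48 to 3.67 with single libraries left out, -1.20 without Dp(10)2Yey replicate 1 among them.

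Calls against all other barcodes numbered 9 with the stricter rule, 29 at a threshold of 0.05, 0 by DESeq2, 4 to 32 with single libraries left out, and 1 without the 5 barcodes that held most UMIs of a gene, a setting chosen after seeing the data. Against precursors they numbered 0 by DESeq2, 2 without the 5 barcodes and 2 to 4 with single libraries left out.

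Fitted values of single genes changed sign, and the cause was not tested. All member UMIs of Ccl12, Ccl2, Mrc1, Tmem212, Rsph1 and Acta2 came from single barcodes of WT replicate 2. In settings without those barcodes the members had no UMI of these genes, so a change of sign there measures nothing. In the segment, with single libraries left out, Ybey ranged from -0.0118 to 0.91, Fam207a from -0.53 to 0.66, Pfkl from -0.0873 to 1.25 and Pwp2 from -0.10 to 0.48, and Mcm3ap was at -0.14 with thinned sums. The difference from all other barcodes ranged likewise from -10.07 to 0.78 for Tmem212, -8.01 to 3.74 for Rarres2, -7.46 to 3.84 for Ccdc153, -2.60 to 0.45 for Nnat, -4.02 to 4.72 for Lyz2, -8.68 to 0.18 for Rsph1, -2.89 to 0.83 for Zfp36l1, -4.48 to 5.28 for Gm19935 and -8.79 to 0.42 for Acta2, with each highest value without WT replicate 2. With the stricter rule it was 0.0194 for Ccl12, 0.0889 for Ccl2, 0.0175 for Ctsc and 0.0216 for Mrc1, and without doublets 0.0559 for Ccl12, 0.12 for Ccl2 and 0.15 for Mrc1. Without the 5 barcodes it was 0.0435 for Ccl12, 3.19 for Ccdc153, 0.12 for Ccl2, 0.0777 for Nnat, 0.16 for Zfp36l1, 0.0534 for Mrc1 and 4.52 for Gm19935. Against precursors it ranged from -2.81 to 0.15 for Nnat, -3.04 to 0.91 for Zfp36l1 and -2.80 to 2.17 for Ptgds with single libraries left out, and was 0.0618 for Zfp36l1 without the 5 barcodes. Of the other values for named genes, 625 kept direction and side of the threshold, 71 lost and 42 gained a call. With 113 members in WT replicate 1, genes at a few CPM rest on single UMIs there, and preparation day and genotype were compared without a known pairing.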
